A study of Rattus norvegicus with 59 samples.

Results

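Cxcl17, Dmbt1, Pglyrp1 and Saa4 encode proteins released into mucus, surface fluid or plasma, and Dmbt1-2 is a further entry under the Dmbt1 name. The products of Cxcl17, Dmbt1 and Pglyrp1 act on microbes or on the cells that clear them. All 5 were followed in RNA from a piece of lung of rats that inhaled crystalline silica, a mineral dust that causes silicosis, or air. The 5 entries were picked by name, with earlier results of these data known, and all 5 were found among the 2887 complete entries of the expression table. The silica rats were male Fischer rats (F344/DuCrl) that breathed 15 mg/m3 crystalline silica in a whole-body chamber, and the air rats, of the same sex and strain, breathed air there with no silica. Exposure lasted 5 days at 6 hours per day, and the rats had been bought at 3 months of age. Lungs were taken at 6 times after exposure, at month 1, 3, 6, 9, 12 and 18, from 5 silica rats and 5 air rats per time, with 4 air rats at 9 months, which gives 30 silica and 29 air libraries in 12 groups. The comparisons ask how each gene's level in silica lungs stood against that in air lungs at a given time. They also ask whether the silica effect varied over time, and how air lungs at 18 months stood against those at 1 month.

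Cxcl17 is a chemokine of mucosal surfaces, made in the airways and known for drawing monocytes, macrophages and dendritic cells. Dmbt1 encodes a large mucin-like glycoprotein with scavenger receptor cysteine-rich domains that binds bacteria, viruses and surfactant proteins in the fluid lining airways and gut. Pglyrp1 encodes a peptidoglycan recognition protein that is stored in neutrophil granules and kills bacteria. Saa4 encodes the constitutive serum amyloid A, as distinct from the acute-phase members of that family. Its product is an apolipoprotein of high-density lipoprotein, made chiefly in the liver in human and mouse. Dmbt1-2 is a second entry of the table under the Dmbt1 name, and no annotation used here describes it.

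Of the 5 entries, 4 were matched by symbol in RefSeq's rat genes (assembly GRCr8). These 4 lie on chromosome 1, as do 2046 of the 2061 names in the expression table that matched RefSeq. A promoter window of 300 bases, from 250 bases before to 50 bases after the annotated start, was held for 2 of the members, Cxcl17, called at each of the 6 times, and Pglyrp1, called at 0, and both are shown. The windows are given 5′ to 3′ on the strand of the gene, from RefSeq, build GRCr8, Cxcl17 at chr1:90124486-90124785 on the minus strand and Pglyrp1 at chr1:87659613-87659912 on the plus strand, and capitals mark matches to the motifs that were searched.
Cxcl17: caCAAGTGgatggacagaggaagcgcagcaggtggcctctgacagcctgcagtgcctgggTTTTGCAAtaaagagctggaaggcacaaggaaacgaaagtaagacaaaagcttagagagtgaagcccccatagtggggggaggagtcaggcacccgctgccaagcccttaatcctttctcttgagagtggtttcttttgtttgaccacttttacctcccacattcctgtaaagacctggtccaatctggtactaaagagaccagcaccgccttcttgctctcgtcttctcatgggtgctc
Pglyrp1: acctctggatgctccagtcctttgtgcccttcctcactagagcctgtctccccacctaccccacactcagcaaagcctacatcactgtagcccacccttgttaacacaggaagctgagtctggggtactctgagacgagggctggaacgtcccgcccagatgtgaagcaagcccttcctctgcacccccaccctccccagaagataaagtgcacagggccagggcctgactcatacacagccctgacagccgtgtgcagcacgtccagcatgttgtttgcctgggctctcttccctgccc
The search covered 5 short motifs on both strands. The motif GGNNTTTCC stood for NF-kB and TTGCNNAA for C/EBP factors. The motif searched for FOXA factors, which act in lung and liver epithelium, was TGTTTAC. For NKX2-1, a transcription factor of lung epithelium that is also found in thyroid, the letters searched were CAAGTG. The TATA box, the short element that places the start of transcription in some promoters, was searched as TATAAA. The Cxcl17 window held the NKX2-1-like motif on the forward strand at base 3 and, at base 61, TTTTGCAA, whose reverse strand reads as the C/EBP-like motif, and these 2 matches do not overlap. The Pglyrp1 window held 0 of the 5 motifs. Among 33469 rat promoter windows of the same length, 14.1% held the NKX2-1-like motif, 10.6% the C/EBP-like, 6.05% the NF-kB-like, 3.78% the FOXA-like and 14.2% the TATA box-like motif, so either match is common, and a match is a run of letters and not a measured site.

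The expression values were FPKM, fragment numbers scaled by transcript length and by the mapped fragments of the library. Summed over the entries present, a library held 12818 to 38613 FPKM. Without the largest entry, LOC102553223, the sums ran from 12025 to 16336 FPKM. Relative depth, read from the steps between low values, ranged from 0.432 to 2.26 of the typical library. Entries that reached 1 FPKM in at least 4 libraries were tested, 1278 in all, and the 5 members were among them. Napsa, a protease of alveolar type 2 cells, stood at 71.5 to 191 FPKM in the 59 libraries, all labelled lung. The library labelled silica replicate 3 at 12 months stood apart from its group. Its 3 tested neutrophil markers and Fpr1 summed to 17.3 FPKM, against 44.1 to 66.9 in the other 4 silica lungs of that time and 15.0 to 22.5 in the air lungs. Its 3 alveolar type 2 markers summed to 138, against 219 to 318 in those silica lungs and 136 to 166 in the air lungs. Values at 12 months are therefore given with and without this library.

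Cxcl17 rose in silica lungs at all 6 times, Dmbt1 at 4 and Dmbt1-2 at 3, whereas neither Pglyrp1 nor Saa4 passed the test at any time. At an unadjusted p under 0.05, Saa4 would count at 2 times, 6 and 9 months, in opposite directions, and Pglyrp1 at 0. Averaged over the 6 times, the silica minus air difference on the log2(FPKM + 0.5) scale was 0.65 ± 0.043 for Cxcl17, 0.34 ± 0.039 for Dmbt1 and 0.24 ± 0.042 for Dmbt1-2 (SE; limma adjusted p = 3.39e-18, 1.04e-10 and 2.96e-06, 30 silica and 29 air libraries). The same average was 0.19 ± 0.10 for Pglyrp1 and 0.090 ± 0.10 for Saa4 (limma adjusted p = 0.103 and 0.469). Thus 3 of the 5 members were called higher and 0 lower in that average, where the share called higher among all tested entries was 37.5%. Over single times the members called higher numbered 2 of 5 at 1 month (8.45% of all tested entries), 1 at 3 months (15.9%), 3 at 6 months (21.2%), 3 at 9 months (19.5%), 1 at 12 months (14.6%) and 3 at 18 months (11.8%). The median difference of the 5 members was 0.24 on the log2 scale in the mean over times, against 0.032 over all tested entries. At single times the members' median lay between 0.16 at 12 months and 0.39 at 18 months, and that of all tested entries between 0.0065 and 0.066. Dmbt1 and Dmbt1-2 met the filter only through silica lungs, with 22 and 15 of 30 at 1 FPKM, against 3 of 29 air lungs each. Their calls here, and their separations below, are therefore not an even comparison with the shares of all tested entries. With 5 members, these counts and medians describe the members and do not set them apart from other genes.

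Every silica value lay above every air value for 3 members at 1 month, as it did for 8.06% of tested entries. That separation held for 1 member at 3 months (11.0% of tested entries), 2 at 6 months (20.6%), 4 at 9 months (16.0%), 0 at 12 months (1.64%) and 3 at 18 months (9.23%). The pseudocount of 0.5 shrinks the differences of the 4 low members, so ratios of mean FPKM are given beside them.

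**Figure D1:**
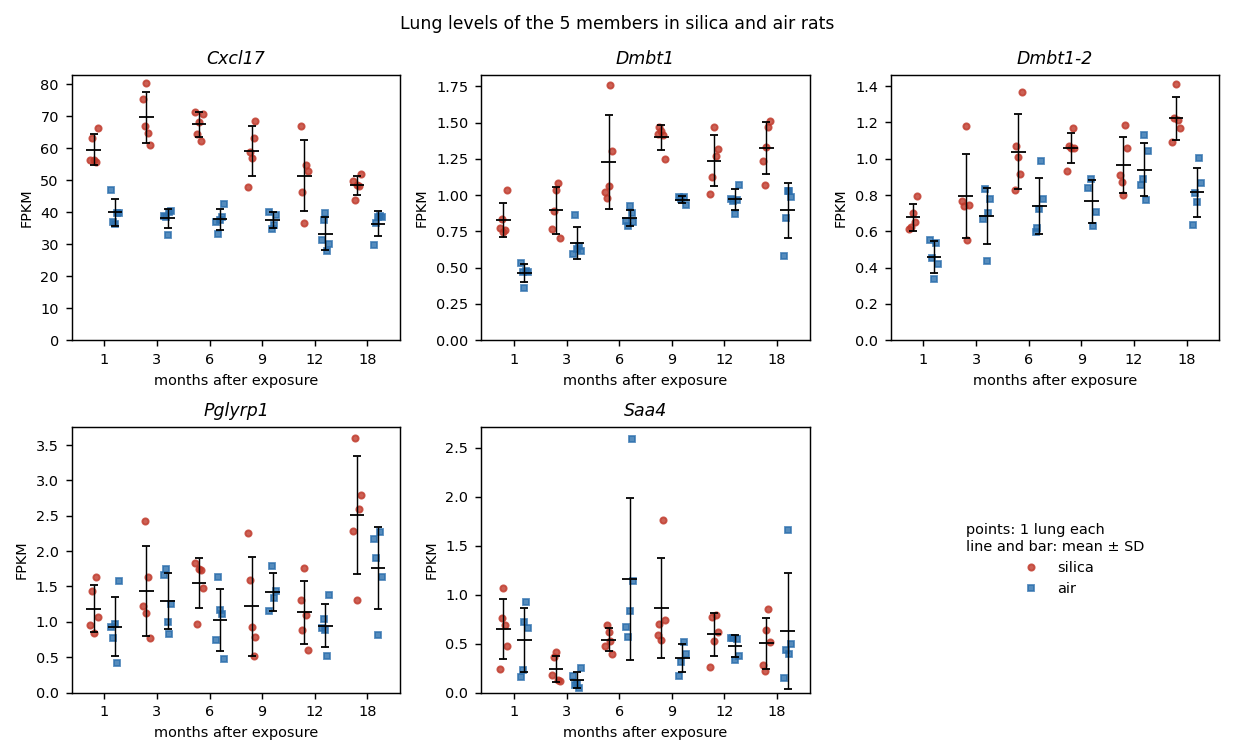
FPKM of each member in every lung by months after exposure, silica (circles) left of air (squares), with the group mean and SD as a line and bar. Cxcl17 of silica lungs lies above that of air lungs at every time but 12 months, where 1 silica lung at 36.7 FPKM falls among the air lungs; Pglyrp1 and Saa4 overlap at most times.

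Cxcl17 was the most abundant of the 5, with 28.0 to 80.4 FPKM over the 59 lungs, and the least variable, with a median within-group coefficient of variation of 9.78%. At 1 month it stood at 56.3, 63.2, 56.1, 55.8 and 66.4 FPKM in silica lungs, against 47.0, 37.0, 36.3, 39.8 and 39.6 FPKM in air lungs. At 3 months the values were 75.4, 66.8, 80.4, 64.6 and 60.9 FPKM in silica lungs, against 38.9, 38.4, 33.0, 40.1 and 40.3 FPKM in air lungs. At both times the lowest silica lung lay above the highest air lung. At 6 months silica lungs held 71.3, 64.5, 68.0, 62.3 and 70.8 FPKM of Cxcl17, against 37.0, 33.1, 37.4, 38.5 and 42.6 FPKM in air lungs. At 9 months silica lungs held 47.8, 58.8, 57.0, 63.2 and 68.6 FPKM, against 40.0, 34.8, 36.1 and 39.3 FPKM in air lungs. Both groups were again apart at each of these times.

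At 12 months Cxcl17 stood at 66.8, 46.2, 36.7, 54.6 and 52.8 FPKM in silica lungs, against 31.3, 37.4, 39.9, 28.0 and 30.1 FPKM in air lungs. The groups overlapped only through silica replicate 3, at 36.7 FPKM, and the other 4 silica lungs all lay above the air lungs. At 18 months the values of Cxcl17 were 49.6, 43.8, 48.5, 48.1 and 51.8 FPKM in silica lungs, against 29.8, 36.5, 38.4, 38.9 and 38.5 FPKM in air lungs, with no overlap.

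The silica to air ratio of mean Cxcl17 was 1.49, 1.83, 1.79, 1.57, 1.54 and 1.33 from 1 to 18 months. On the log2 scale the differences were 0.57 ± 0.10 at 1 month, 0.86 ± 0.10 at 3 months, 0.83 ± 0.10 at 6 months, 0.64 ± 0.11 at 9 months, 0.60 ± 0.10 at 12 months and 0.41 ± 0.10 at 18 months (SE). The limma adjusted p were 0.000214, 1.3e-08, 3.06e-08, 1.32e-05, 3.02e-05 and 0.0044 in the same order of times. Without silica replicate 3 the 12-month difference was 0.72 (limma adjusted p = 1.03e-07) and the silica mean was 55.1 ± 8.58 FPKM (SD, n = 4), against 33.3 ± 5.07 FPKM in the 5 air lungs. A fit of the 12-month groups alone gave the same difference with a limma adjusted p of 0.103, where the alternatives to the fit of all groups ranged from 9.24e-06 to that value.

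Mean Cxcl17 of silica lungs was highest at 3 months (69.6 ± 8.02 FPKM) and lowest at 18 months (48.4 ± 2.93 FPKM), and neighbours in the order 3, 6, 1, 9, 12 and 18 months differed by less than the larger of their SDs except 6 from 1 month (SD, n = 5 each). Air lungs, at 40.0 ± 4.25 FPKM at 1 month and 36.4 ± 3.83 FPKM at 18 months, lay below every silica group mean at all 6 times. The variation of the silica effect between times did not pass the F test (limma adjusted p = 0.272, unadjusted p = 0.0338), a test that 1.33% of tested entries passed. That p was 0.0189 with library quality weights, 0.0424 without the 12-month groups and 0.107 without silica replicate 3 of 12 months, within a range of 0.0189 to 0.502 over the alternatives. None of the 5 members passed that F test, 2 of them (Cxcl17 and Saa4) having an unadjusted p under 0.05. The silica effect at 18 months minus that at 1 month was -0.16 ± 0.15 for Cxcl17 (SE; limma adjusted p = 0.733), a comparison in which 0.156% of tested entries were called and 0 of the 5 members, 0 of them also at an unadjusted p under 0.05.

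**Figure D2:**
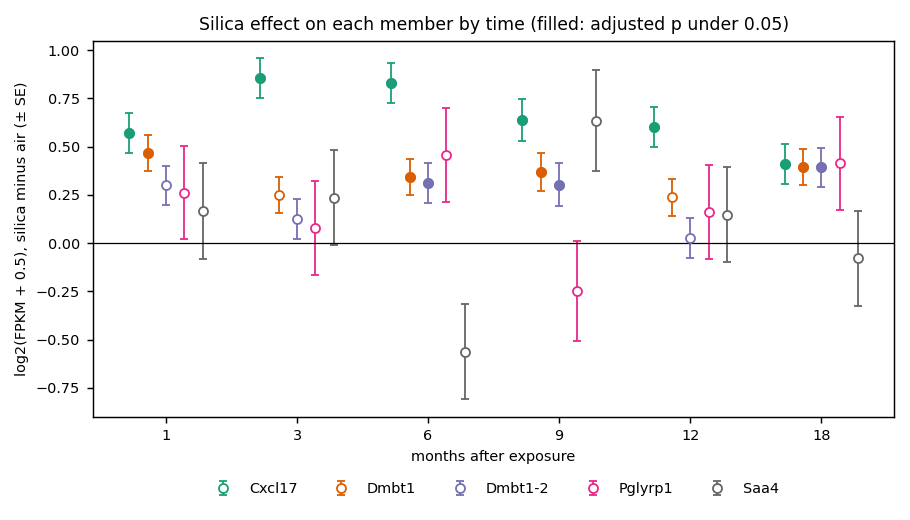
Silica minus air difference of each member by months after exposure on the log2(FPKM + 0.5) scale, with the SE as a bar, filled where the adjusted p is under 0.05. Cxcl17 is filled at all 6 times, with its largest values at 3 and 6 months; Dmbt1 is filled at 4 times and Dmbt1-2 at 3; Pglyrp1 and Saa4 are open throughout and change sign between times.

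Over the 59 libraries the 3 named genes whose levels were most like those of Cxcl17 were Lpcat1, a lysophosphatidylcholine acyltransferase of surfactant lipid synthesis (Pearson r = 0.905), Fxyd3, an FXYD family modulator of the sodium pump (0.896), and Igsf6, an immunoglobulin superfamily membrane protein (0.883). After the mean of each group was subtracted these r were 0.744, 0.659 and 0.656, as a description over libraries that share their preparation and depth. All 3 genes were also higher in silica lungs in the mean over times, by 0.67 ± 0.042, 0.69 ± 0.062 and 0.44 ± 0.048 on the log2 scale (± SE, with limma adjusted p of at most 3.56e-11). Within groups Cxcl17 correlated with the other members at r = 0.048 for Dmbt1, 0.52 for Dmbt1-2, -0.25 for Pglyrp1 and 0.11 for Saa4. All these r include silica replicate 3 of 12 months.

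Markers of some cell types also rose in silica lungs, and those of others did not. Alveolar type 2 markers present in the table, 3 of 10 listed (Napsa, Lpcat1 and Cebpa), all rose in the mean over times with a median difference of 0.64, and summed to 138 to 318 FPKM in silica lungs (median 229) and 130 to 166 FPKM in air lungs (median 146). General epithelial markers, 4 of 15 listed, rose in 3 (Spint2, Prss8 and Scnn1b), with Scnn1g at 0.034 ± 0.036. They summed to 78.2 to 118 FPKM in silica lungs and 71.1 to 93.4 FPKM in air lungs. In both of these sums silica replicate 3 of 12 months was the lowest silica lung. The next lowest silica lung stood at 173 FPKM for alveolar type 2 markers and 81.1 FPKM for general epithelial markers. Airway club and goblet markers, 2 of 12 listed, passed the test in 0: Cyp2f4 was at -0.20 ± 0.16 and Cyp2a3 at -0.044 ± 0.20, with sums of 3.51 to 42.2 FPKM in silica lungs (median 18.5) and 8.36 to 52.6 FPKM in air lungs (median 20.9). The 1 ciliated marker of 8 listed, Dnaaf3, was at -0.020 ± 0.058. Their part in the Cxcl17 difference was not tested, and in RNA of mixed lung tissue more cells of a type cannot be told apart from more RNA per cell.

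Dmbt1 was a low entry, at 0.361 to 1.76 FPKM, and reached 1 FPKM in 22 of 30 silica lungs and 3 of 29 air lungs, so that it entered the test only through silica lungs. Removing the filter left its calls at the 6 times and in the mean over times as they were. At 1 month it stood at 0.776, 0.833, 0.744, 0.762 and 1.03 FPKM in silica lungs, against 0.531, 0.472, 0.361, 0.476 and 0.470 FPKM in air lungs. No air lung reached the lowest silica lung. At 3 months the values were 0.767, 0.888, 1.03, 1.08 and 0.706 FPKM in silica lungs, against 0.597, 0.865, 0.628, 0.652 and 0.614 FPKM in air lungs. The groups overlapped there through air replicate 2, the highest air lung. At 6 months silica lungs held 1.02, 0.979, 1.06, 1.76 and 1.31 FPKM, against 0.825, 0.785, 0.926, 0.874 and 0.815 FPKM in air lungs. At 9 months silica lungs held 1.42, 1.47, 1.44, 1.41 and 1.25 FPKM of Dmbt1, against 0.986, 0.972, 0.986 and 0.934 FPKM in air lungs. These 2 times showed no overlap.

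At 12 months Dmbt1 stood at 1.01, 1.12, 1.47, 1.27 and 1.32 FPKM in silica lungs, against 0.975, 0.961, 0.873, 0.969 and 1.07 FPKM in air lungs, and the lowest silica lung fell below the highest air lung. Silica replicate 3, which was low in Cxcl17 and in the neutrophil and alveolar type 2 markers, was the highest of the 5 silica lungs in Dmbt1. At 18 months the values were 1.23, 1.07, 1.33, 1.47 and 1.51 FPKM in silica lungs, against 0.582, 0.846, 1.03, 1.03 and 0.990 FPKM in air lungs, with no overlap.

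The silica to air ratio of mean Dmbt1 was 1.80, 1.33, 1.45, 1.44, 1.28 and 1.48 from 1 to 18 months. On the log2 scale the difference was 0.47 ± 0.094 at 1 month, 0.34 ± 0.094 at 6 months, 0.37 ± 0.099 at 9 months and 0.39 ± 0.094 at 18 months (SE; limma adjusted p = 0.00112, 0.00446, 0.00347 and 0.00278). The Dmbt1 differences at 3 months (0.25 ± 0.094) and 12 months (0.24 ± 0.094) did not pass, with limma adjusted p of 0.0551 and 0.0575. The 3-month value passed without silica replicate 1 (adjusted p = 0.0492), silica replicate 5 (0.0244) or air replicate 2 (0.025), and the 12-month value passed without silica replicate 1 (0.0396). The 3-month Dmbt1 value also passed with a pseudocount of 0.1 (0.0431), without the intensity trend (0.0447) and with library weights (0.0294, range over the alternatives 0.0294 to 0.246), and the 12-month value without the trend (0.0475, range 0.0475 to 0.139). Without silica replicate 3 the 12-month Dmbt1 difference was 0.19 (limma adjusted p = 0.132), with a silica mean of 1.18 ± 0.141 FPKM (SD, n = 4), against 0.970 ± 0.0709 FPKM in 5 air lungs. The 18-month call was lost in a fit of the groups of that time alone (adjusted p = 0.0618, range over the alternatives 0.00157 to 0.0618). The Dmbt1 effect did not pass the test for variation between times (limma adjusted p = 0.761), and its effect at 18 months minus that at 1 month was -0.073 ± 0.13 (limma adjusted p = 0.886).

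Dmbt1 was also higher at 18 months than at 1 month in lungs that had seen no silica. Mean Dmbt1 was 0.894 ± 0.190 FPKM in air lungs at 18 months and 0.462 ± 0.0620 FPKM in air lungs at 1 month (SD, n = 5 each), a difference of 0.53 ± 0.094 on the log2 scale (± SE, with a limma adjusted p of 4.67e-05). Air lungs averaged 0.671, 0.845, 0.969 and 0.970 FPKM at 3, 6, 9 and 12 months. Dmbt1 of silica lungs averaged 0.830, 0.895, 1.23, 1.40, 1.24 and 1.32 FPKM from 1 to 18 months, so air lungs at 9 and 12 months lay above silica lungs at 1 and 3 months, by less than the larger SD at 3 months. Among the 5 members, 3 were called higher in air at 18 months than in air at 1 month (Dmbt1, Dmbt1-2 and Pglyrp1) and 0 lower, where 17.4% of tested entries were called higher. Age and time of sampling cannot be told apart in this comparison, as each time was a separate group of rats.

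Dmbt1-2 follows Dmbt1 at some distance in the order of the table, and any reads shared between these entries could leave the level of either uncertain. Its values ranged from 0.336 to 1.41 FPKM and reached 1 FPKM in 15 of 30 silica lungs and 3 of 29 air lungs, so it too entered the test only through silica lungs. With no filter Dmbt1-2 had limma adjusted p of 0.0277, 0.0392 and 0.00749 at 6, 9 and 18 months and 3.28e-06 in the mean over times. At 1 month it stood at 0.615, 0.623, 0.703, 0.651 and 0.793 FPKM in silica lungs, against 0.551, 0.452, 0.336, 0.537 and 0.417 FPKM in air lungs, with no overlap. At 3 months the values of Dmbt1-2 were 0.764, 0.742, 1.18, 0.550 and 0.745 FPKM in silica lungs, against 0.670, 0.833, 0.437, 0.701 and 0.779 FPKM in air lungs. The groups overlapped widely, and 1 silica lung lay above all air lungs. At 6 months silica lungs held 0.830, 1.07, 1.01, 0.917 and 1.37 FPKM, against 0.595, 0.620, 0.722, 0.985 and 0.779 FPKM in air lungs, where air replicate 4 reached into the silica range. At 9 months silica lungs held 0.933, 1.07, 1.06, 1.17 and 1.06 FPKM of Dmbt1-2, against 0.840, 0.886, 0.629 and 0.708 FPKM in air lungs, with no overlap.

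At 12 months Dmbt1-2 stood at 0.912, 0.873, 0.800, 1.18 and 1.06 FPKM in silica lungs, against 0.856, 0.888, 1.13, 0.771 and 1.04 FPKM in air lungs, and the groups lay across each other. Silica replicate 3 was the lowest of its group in this entry although the highest in Dmbt1. At 18 months the values were 1.09, 1.22, 1.41, 1.21 and 1.17 FPKM in silica lungs, against 0.635, 0.808, 0.764, 1.00 and 0.866 FPKM in air lungs, with no overlap.

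The silica to air ratio of mean Dmbt1-2 was 1.48, 1.16, 1.40, 1.38, 1.03 and 1.50 from 1 to 18 months. It was called higher at 6 months (0.31 ± 0.10 on the log2 scale), 9 months (0.30 ± 0.11) and 18 months (0.39 ± 0.10), with limma adjusted p of 0.0191, 0.0283 and 0.00645. The differences of 0.30 ± 0.10 at 1 month, 0.12 ± 0.10 at 3 months and 0.027 ± 0.10 at 12 months did not pass (limma adjusted p = 0.0572, 0.44 and 0.877). The 1-month difference passed without air replicate 1 (adjusted p = 0.0478), with a pseudocount of 0.1 (0.0281), without the intensity trend (0.0438), with library weights (0.0387) and in the fit of that time alone (0.0313), within a range of 0.0281 to 0.258 over the alternatives. The 6-month call of Dmbt1-2 was lost without air replicate 1 (0.0622), air replicate 2 (0.0593) or silica replicate 5 (0.0942), and after median centring (0.0558, range over the alternatives 0.00127 to 0.0558). The 9-month call was lost without air replicate 3 (0.112), air replicate 4 (0.0704) or silica replicate 4 (0.0689), after quantile normalization (0.0517) and with library weights (0.0726, range 0.0214 to 0.0726). At 12 months the sign turned without air replicate 4 (-0.016) or silica replicate 4 (-0.025), and was 0.068 without silica replicate 3 (limma adjusted p = 0.682). Dmbt1-2 was higher in air at 18 months than in air at 1 month, by 0.46 ± 0.10 on the log2 scale (limma adjusted p = 0.00103). It stood at 0.816 ± 0.136 FPKM in air lungs at 18 months and 0.459 ± 0.0888 FPKM in air lungs at 1 month (SD, n = 5 each). Its silica effect at 18 months minus that at 1 month was 0.093 ± 0.15 (limma adjusted p = 0.874).

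The Dmbt1 and Dmbt1-2 entries correlated at Pearson r = 0.787 over the 59 libraries and at 0.251 after group means were subtracted. The ratio of Dmbt1 to Dmbt1-2 FPKM averaged 1.17 ± 0.249 (SD, n = 59) and ranged from 0.773 to 1.97, so the 2 entries did not hold copies of the same values. By group the mean ratio lay between 1.09 and 1.33 in silica lungs and between 1.02 and 1.29 in air lungs. A further entry, LOC691970, whose gene number RefSeq gives to Dmbt1l1, was listed at 0 in 20 libraries and at most at 0.0887 FPKM, and was not tested.

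**Figure D3:**
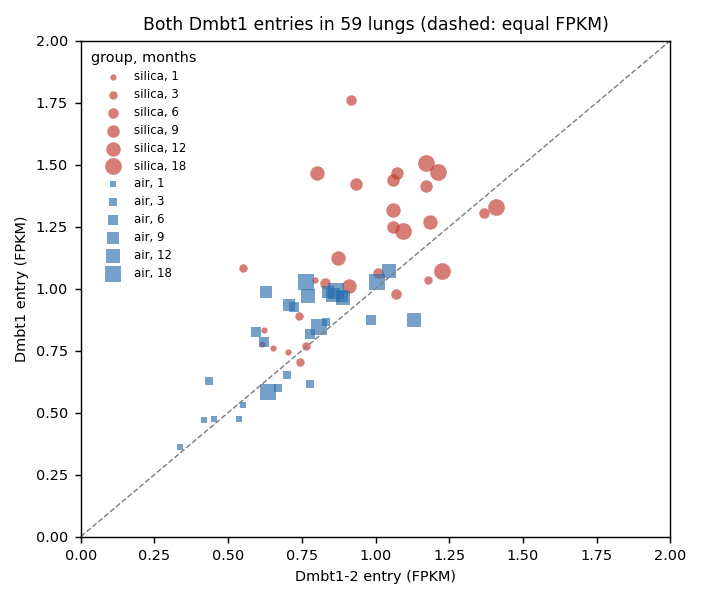
FPKM of the Dmbt1 entry against that of the Dmbt1-2 entry in the 59 lungs, silica as circles and air as squares, with larger symbols for later times and a dashed line at equal FPKM. Most lungs lie above the line, the 1-month air lungs (0.361 to 0.531 FPKM of Dmbt1) lie lowest, and the later groups of either treatment lie higher.

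The 3 named genes most like Dmbt1 over the 59 libraries were Anpep, an aminopeptidase of cell surfaces (r = 0.803), Iqgap1, a cytoskeletal scaffold (0.791), and Map7, a microtubule-binding protein (0.778). Those most like Dmbt1-2 were Bcl3, an IkB family nuclear protein (0.725), Iqgap1 (0.715) and Map7 (0.701). After group means were subtracted r was -0.015, 0.060 and 0.15 for Dmbt1 and 0.35, 0.17 and 0.20 for Dmbt1-2, so the likeness lay mostly between groups rather than between lungs of a group.

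Pglyrp1 ranged from 0.422 to 3.60 FPKM over the 59 lungs, with a median within-group coefficient of variation of 33.1%, and silica and air lungs overlapped at all 6 times. It was highest at 18 months, at 2.28, 3.60, 1.30, 2.60 and 2.80 FPKM in silica lungs, against 2.18, 1.90, 0.817, 2.27 and 1.64 FPKM in air lungs. There 4 of 5 silica lungs lay above all air lungs. At 9 months the values were 2.26, 1.59, 0.929, 0.518 and 0.789 FPKM in silica lungs, against 1.15, 1.79, 1.33 and 1.44 FPKM in air lungs. In that comparison 3 silica lungs lay below all air lungs and 1 above them. At 6 months they were 1.84, 0.964, 1.74, 1.74 and 1.48 FPKM in silica lungs, against 0.749, 1.63, 1.17, 1.11 and 0.478 FPKM in air lungs, with 3 silica lungs above the air lungs.

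Pglyrp1 ranged at the remaining times from 0.837 to 1.64 FPKM in silica lungs and 0.422 to 1.58 FPKM in air lungs at 1 month, from 0.766 to 2.43 FPKM in silica lungs and 0.830 to 1.74 FPKM in air lungs at 3 months, and from 0.604 to 1.77 FPKM in silica lungs and 0.518 to 1.37 FPKM in air lungs at 12 months. The silica to air ratio of mean Pglyrp1 was 1.27, 1.11, 1.51, 0.854, 1.20 and 1.43 from 1 to 18 months. On the log2 scale the differences were 0.26, 0.079, 0.46, -0.25, 0.16 and 0.41, each with an SE of 0.24, or 0.26 at 9 months, and limma adjusted p from 0.16 to 0.852. The 3-month sign turned without silica replicate 2 (-0.085) or air replicate 4 (-0.022), and the 12-month value was 0.034 without silica replicate 3 (limma adjusted p = 0.934). On leaving out 1 library the Pglyrp1 difference ran from 0.12 (without air replicate 4) to 0.41 (without air replicate 5) at 1 month and from 0.31 to 0.59 at 6 months. It ran from -0.44 (without silica replicate 1) to -0.083 (without silica replicate 4) at 9 months and from 0.23 (without air replicate 3) to 0.59 at 18 months, with adjusted p from 0.0873 to 0.862 over these 4 times. The mean over times, 0.19 ± 0.10, reached a limma adjusted p of 0.0252 without the 9-month groups, at 0.27, and ranged from 0.0252 to 0.325 over the alternatives. At an SE of 0.24, a difference as large as the average of Dmbt1 (0.34) was not detectable in Pglyrp1 at a single time.

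Pglyrp1 was at 1.76 ± 0.583 FPKM in air lungs at 18 months and 0.933 ± 0.420 FPKM in air lungs at 1 month (SD, n = 5 each). The difference was 0.66 ± 0.24 on the log2 scale (± SE, with a limma adjusted p of 0.0436). That call was lost on leaving out any one of 8 of the 10 libraries, the exceptions being air replicate 5 of 1 month and air replicate 3 of 18 months, with adjusted p from 0.0129 to 0.151 and differences from 0.51 to 0.84. It was also lost for Pglyrp1 with no filter (adjusted p = 0.0725), after median centring (0.0767) and after quantile normalization (0.0739), within a range of 0.00379 to 0.0767 over the alternatives.

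Neutrophil markers in the table, 4 of 15 listed (Cd177, Ceacam10, Itgam and Fpr1), rose in the 3 that were tested, Fpr1 being at 0 to 0.638 FPKM, with a median difference of 1.21 on the log2 scale in the mean over times. They summed to 17.3 to 66.9 FPKM in silica lungs (median 54.0) and 8.42 to 23.2 FPKM in air lungs (median 15.0). Macrophage markers, 3 of 10 listed (Siglec5, Itgax and Itgam, the last also a neutrophil marker), rose in 3, with a median of 0.73. They summed to 9.85 to 29.7 FPKM in silica lungs and 9.83 to 15.5 FPKM in air lungs. Silica replicate 3 of 12 months was the lowest silica lung in both sums. The next lowest silica lung stood at 35.4 FPKM for the neutrophil markers and 15.3 FPKM for the macrophage markers. Pglyrp1, itself a neutrophil granule gene, thus did not pass the test where these markers did, and the difference between Pglyrp1 and the markers was not tested. The named genes most like Pglyrp1 were Siglec5, a sialic acid-binding receptor of myeloid cells (r = 0.563), Supt5h, a transcription elongation factor (0.561), and Nlrp12, an NLR family regulator of inflammation (0.534), with r of 0.30, 0.37 and 0.33 after group means were subtracted.

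Saa4 was the lowest and most variable member, at 0.0497 to 2.58 FPKM with a median within-group coefficient of variation of 54.3%, and it reached 1 FPKM in 2 of 30 silica lungs and 3 of 29 air lungs. At 6 months it stood at 0.477, 0.687, 0.620, 0.523 and 0.398 FPKM in silica lungs, against 0.672, 0.568, 0.828, 2.58 and 1.14 FPKM in air lungs. No silica lung lay above all air lungs, and air replicate 4 was far above the rest. At 9 months the values of Saa4 were 0.587, 0.703, 0.532, 1.76 and 0.742 FPKM in silica lungs, against 0.172, 0.314, 0.520 and 0.396 FPKM in air lungs. All silica lungs lay above the air lungs there, by 0.532 against 0.520 FPKM at the closest. At 3 months the levels were the lowest of any time, at 0.182, 0.363, 0.410, 0.133 and 0.115 FPKM in silica lungs, against 0.167, 0.0742, 0.0852, 0.0497 and 0.251 FPKM in air lungs, with overlap.

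At 1 month Saa4 ranged from 0.243 to 1.06 FPKM in silica lungs and from 0.158 to 0.922 FPKM in air lungs, at 12 months from 0.260 to 0.792 FPKM in silica lungs and from 0.329 to 0.561 FPKM in air lungs, and at 18 months from 0.216 to 0.853 FPKM in silica lungs and from 0.146 to 1.65 FPKM in air lungs. The silica to air ratio of mean Saa4 was 1.21, 1.92, 0.467, 2.47, 1.25 and 0.803 from 1 to 18 months. On the log2 scale the silica minus air differences were 0.17, 0.23, -0.56, 0.63, 0.15 and -0.080 from 1 to 18 months, with an SE of 0.25, or 0.26 at 9 months. The limma adjusted p were 0.764, 0.548, 0.0812, 0.0599, 0.712 and 0.869 in the same order. The 6-month difference passed for Saa4 without air replicate 2 (-0.69, adjusted p = 0.044), after median centring (0.048) and after quantile normalization (0.0456, range over the alternatives 0.0456 to 0.14), and was -0.31 (adjusted p = 0.385) without air replicate 4, the high lung. The 9-month difference passed without silica replicate 1 (0.70, adjusted p = 0.0472) or silica replicate 3 (0.72, adjusted p = 0.0449), and was 0.44 (adjusted p = 0.237) without silica replicate 4. The 18-month sign turned without air replicate 3 (0.19) or silica replicate 2 (0.032). At 12 months the Saa4 difference without silica replicate 3 was 0.17 (limma adjusted p = 0.682). The F test of variation between times gave a limma adjusted p of 0.292 (unadjusted 0.0452). Air at 18 months differed from air at 1 month by 0.055 ± 0.25 (limma adjusted p = 0.919).

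Over the 59 lungs, 3 plasma protein genes had the levels most like those of Saa4. They were picked by that likeness among the tested genes with a symbol, and their r include the lungs highest in Saa4. The 3 named genes most like it were Hpx, which encodes the heme-binding plasma protein hemopexin (r = 0.884), Apoc1, an apolipoprotein (0.864), and Plg, plasminogen (0.858), with r of 0.859, 0.849 and 0.846 after group means were subtracted. In the mean over times Hpx was at 0.40 ± 0.18, Apoc1 at 0.18 ± 0.25 and Plg at 0.020 ± 0.17 on the log2 scale (limma adjusted p = 0.0506, 0.567 and 0.933). The 3 lungs highest in Saa4 were silica replicate 4 at 9 months, air replicate 4 at 6 months and air replicate 3 at 18 months. Plg stood at 4.19 FPKM in that silica lung, against 5.42 and 5.49 FPKM in those 2 air lungs, and these were the 3 highest Plg values of the 59, whose median was 0.942 FPKM. Hpx stood at 13.1 FPKM in the same silica lung, against 14.9 and 14.9 FPKM in the 2 air lungs, with a median of 3.62 FPKM over the 59. The 8 hepatocyte markers listed were not analysed here, and what these lungs share was not tested.

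**Figure D4:**
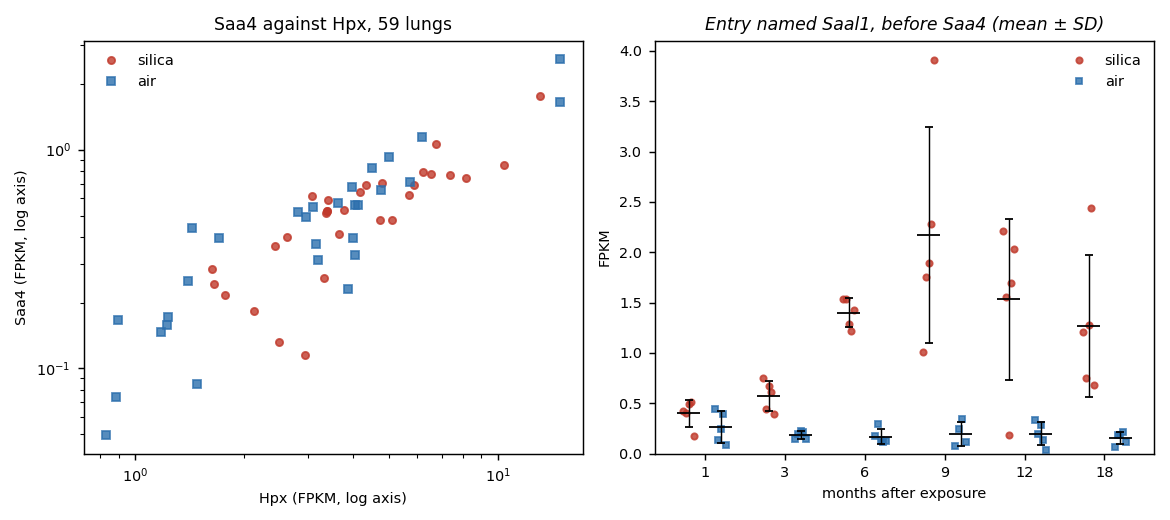
Left, Saa4 FPKM against Hpx FPKM in the 59 lungs on log axes, silica as circles and air as squares; the 2 rise together in both groups, with 3 lungs above 13 FPKM of Hpx at the top. Right, FPKM of the entry named Saal1 by months after exposure, silica left of air, with the group mean and SD; silica means run from 0.399 FPKM at 1 month to 2.17 FPKM at 9 months, and air means stay between 0.152 and 0.260 FPKM.

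The entry next to Saa4 in the table, named Saal1, was singled out after its values were seen. RefSeq uses that name both as the current symbol of one gene, whose gene number the table lists separately as LOC691143, and as an older name of Saa3, an acute-phase serum amyloid A, so which of them the entry holds was not settled here. The LOC691143 entry ranged from 0.871 to 2.50 FPKM and was called at 1 of 6 times. Its silica minus air difference in the mean over times was 0.17 ± 0.055 (SE, limma adjusted p = 0.00709). At 9 months the Saal1 entry stood at 1.01, 1.75, 1.89, 2.28 and 3.91 FPKM in silica lungs, against 0.0743, 0.244, 0.344 and 0.114 FPKM in air lungs. All silica lungs lay above all air lungs at 3, 6, 9 and 18 months. The silica to air ratio of its mean FPKM was 1.53, 3.14, 8.30, 11.2, 7.71 and 8.33 from 1 to 18 months. No air lung held more than 0.443 FPKM of Saal1, so it met the filter of 1 FPKM only through silica lungs. Its calls and adjusted p are therefore not an even comparison with other entries, and its results with no filter are not given here. The Saal1 entry was called higher at 5 of 6 times, the exception being 1 month (limma adjusted p = 0.596), and at 3 months the adjusted p was 0.045. Its effect varied between times (limma adjusted p = 0.0211), and 5.15e-05 without silica replicate 3 of 12 months, which held 0.180 FPKM, against 1.55 to 2.21 FPKM in the other 4 silica lungs of that time. In the mean over times the Saal1 difference was 1.18 ± 0.095 on the log2 scale (limma adjusted p = 3.43e-15). Values of Saal1 on leaving out other libraries are not given here. Saa4 and Saal1 correlated at r = 0.203 over the 59 libraries.

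The wider list of mucosal and airway defence genes was thinly covered, with 5 of 67 listed genes in the table and 2 of them tested. Fcgrt, the neonatal Fc receptor that carries IgG across epithelium, was lower in silica lungs in the mean over times, where its log2 difference was -0.088 ± 0.038 (SE, limma adjusted p = 0.0421), with 21.6 to 34.7 FPKM over the 59 lungs. Scgb1c1, a secretoglobin, was at 0.30 ± 0.14 in that mean (limma adjusted p = 0.0699). The mean over times does not give the direction at each time. Fcgrt made up most of the sum of the 5 listed genes. At 1 month that sum was 25.25 to 28.97 FPKM in silica lungs, against 30.81 to 33.48 FPKM in air lungs. At 6 months it leaned the other way, at 27.11 to 31.6 FPKM in silica lungs, against 24.85 to 27.24 FPKM in air lungs. Values of Fcgrt alone at single times are not given here. Fcgbp, an IgG Fc-binding mucus protein, ranged from 0.131 to 0.621 FPKM, Zg16, a mucus lectin of the gut, from 0 to 0.258 FPKM, and Galp was listed at 0 in all libraries, so these 3 were not tested.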

How the data were processed

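RNA from a piece of lung of 59 rats was sequenced as stranded total RNA after ribosomal RNA depletion, per the labels' protocols. Cufflinks 2.1.1, Bowtie2 2.2.9 and TopHat2 2.0.9 were used beside Trimmomatic 0.35 and bcl2fastq 2.19, per the submitters' processing notes, which do not say in what order. For the genome build, a name was not given in the sources used here. Per library, the authors deposited 1 column of FPKM, and 0 columns were left unmatched. Of 2888 entries 1 was incomplete and left out. Of the rest, 2061 names matched RefSeq and 2046 of these lie on chromosome 1, so other genes were not analysed here. The deposited FPKM give no read counts, and the depth behind a value is known only relative to other libraries.

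Entries with at least 1 FPKM in at least 4 libraries were tested on log2(FPKM + 0.5), a scale that understates changes of low genes, with limma 3.58.1 in R 4.3.3. All 12 groups entered 1 fit with an intensity trend and 47 residual degrees of freedom, without covariates since the labels give no batch. Benjamini-Hochberg adjustment covered all 1278 tested entries of a comparison, and the threshold was 0.05. The tests set each difference against the spread between rats within groups, 1 library per rat. The code was tested on simulated data. Replicate numbers only name libraries, in accession order.

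The members, the gene and marker lists and the tests were chosen with earlier results of these data known. All members are named, with, for each, the 3 tested genes with a symbol that had the highest Pearson r over the 59 libraries, and listed genes that passed the filter. Alternatives were other pseudocounts (0.1 and 1), filters, scalings, variance models, single-time fits and leaving out each library. Leaving out the groups of each time was added after seeing the data. Promoters came from RefSeq (GRCr8), whose coordinates do not refer to the build behind the FPKM. Plots were drawn with matplotlib 3.10.9 in Python 3.11.15.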

Additional observations from a re-analysis of the deposited data

Results flagged for a closer look

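Over the 5 members and 12 groups, 60 sets of values were compared, and in 7 of them 1 lung lay apart from the rest of its group by Dixon's 95% criterion, which chance meets in about 1 set of 20, or 3 of 60. In Cxcl17, air replicate 3 at 3 months was low at 33.0 FPKM (median of the others 39.5), and air replicate 1 at 18 months was low at 29.8 FPKM (median of the others 38.4). In Dmbt1, silica replicate 5 at 9 months was low at 1.25 FPKM (median of the others 1.43), and air replicate 2 at 3 months was high at 0.865 FPKM (median of the others 0.621). In Saa4, silica replicate 4 at 9 months was high at 1.76 FPKM (median of the others 0.645), air replicate 4 at 6 months was high at 2.58 FPKM (median of the others 0.750), and air replicate 3 at 18 months was high at 1.65 FPKM (median of the others 0.416).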

How the results depend on the processing

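No paired analysis was possible because the labels give no replicate numbers shared between groups. The calls of Cxcl17, Dmbt1 and Dmbt1-2 in the mean over times kept their side of the threshold under every alternative run that kept the gene among the tested entries. The stricter filter of 1 FPKM in at least 30 libraries kept only Cxcl17 and Pglyrp1 of the members and gives no member count. For Cxcl17 the F test p was 0.0189 with library weights and 0.0424 without the 12-month groups. Members called numbered 2 at 3 months with a pseudocount of 0.1, no trend or library weights (1 to 2 on leaving out libraries), 2 at 12 months with no trend and 0 in the fit of that time (1 to 2 on leaving out libraries), and 1 in the F test with library weights or without the 12-month groups. For Pglyrp1 the mean over times was 0.27 without the 9-month groups, and the air 18-month against 1-month difference was 0.66 with no filter, 0.57 after median centring and 0.58 after quantile normalization (0.51 to 0.84 on leaving out libraries).

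Signs turned only in differences that did not pass the test. These were Dmbt1 at 18 months against 1 month (0.025, quantile), and Dmbt1-2 at 12 months (-0.0076, median centring; -0.025 to 0.073 on leaving out libraries). For Pglyrp1 they were 3 months (-0.010, median centring; -0.085 to 0.22), 12 months (-0.023, weights) and 18 months against 1 month (-0.027, weights; -0.032 to 0.32). For Saa4 they were 3 months (-0.019, quantile), 18 months (-0.25 to 0.19), the mean over times (-0.0098, quantile; -0.019 without the 9-month groups), 18 months against 1 month (-0.41 to 0.020) and age in air (-0.031, median centring; -0.073, weights; -0.21 to 0.22). The causes were not tested. Neither median centring nor quantile normalization moved the median of all tested entries by 0.1, but the silica minus air medians turned negative. At 3 months that median went from 0.065 to -0.032 after quantile normalization, and at 1 month from 0.066 to -0.024 after median centring. In the mean over times Cxcl17 went from 0.65 to 0.59 after median centring and 0.53 after quantile normalization. FPKM carry no read depth per value, and at 1 time the SE of Pglyrp1 and Saa4 was 0.24 to 0.26.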
